A study of Mus musculus with 4 samples.

Results

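Among non-cycling CD8 T cells of mouse tumours, 16.3% carried a strong interferon signature: 425 of 2606 such cells, out of 15752 cells in the whole data set. These interferon-responding cells, called members here, were chosen by their own counts. A unique molecular identifier (UMI) counts one captured RNA molecule, and cells were barcodes with at least 1000 UMIs, at least 200 detected genes and at most 10% mitochondrial UMIs. A non-cycling CD8 cell had at least 1 UMI each of Cd3e, Cd8a and Cd8b1, none of Cd4, Foxp3 or Ncr1, and fewer than 3 UMIs of Mki67 plus Top2a. A member had in addition at least 5 UMIs of Ifit1, Ifit3 and Rsad2 together, a sum called the interferon score below. The other 2181 non-cycling CD8 cells are called the remaining cells.

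The data came from 4 single-cell 3' RNA libraries of immune cells from tumours of mice aged 6 to 8 weeks, 1 library for each group. The groups are named Ac, C, aC+C and IgG in the labels. The labels do not spell out the first 3 names; IgG is the usual name of a control antibody and is taken as the reference. The sources used here give neither strain nor the number of animals per library. The labels also call the cell type goblet cells and describe sorting them from RedMUC298trTg reporter mice, while the sample titles and the series title speak of tumour-infiltrating immune and CD8+ T cells. Over all 15752 cells, the goblet cell genes Muc2, Tff3 and Agr2 had 11, 15 and 1 UMIs, and no cell had more than 2 UMIs of any of them, so the defining genes of goblet cells were near 0 in every library. With 1 library per group there is no replicate, so no difference between groups was tested, and treatment cannot be told apart from the library or the animals that gave it.

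Members numbered 144 in Ac, 73 in C, 91 in aC+C and 117 in IgG, and their UMIs summed to 1040413 to 1490599 per library. Their median depth was 8504 UMIs in Ac, 12367 in C, 10035 in aC+C and 10282 in IgG, and that of the remaining cells 9430, 9919, 10775 and 10956 UMIs in the same order. Members were the shallower class in Ac, aC+C and IgG and the deeper one in C. Libraries shared 2 to 7 cell barcodes per pair, and 0 of these were members in both libraries of the pair.

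Interferons are secreted warning signals. Type I interferons bind the receptor pair Ifnar1 and Ifnar2 and, through the kinases Jak1 and Tyk2, activate a complex with Stat2 and Irf9 that binds interferon-stimulated response elements in promoters; interferon gamma acts through a receptor of its own. The genes switched on in this way block viral RNA and protein synthesis, sense foreign nucleic acid, modify proteins with the ubiquitin-like Isg15 and raise antigen presentation. In tumours, T cells with this signature are often found as a separate state beside effector, exhausted and dividing T cells.

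The promoters of the genes that define the members are shown first because 3 of the 3 score genes and the marker Isg15 carry the element itself. The sequences are the 150 bases upstream of the annotated start, read 5′ to 3′ on the gene's strand from RefSeq (GRCm38.p6). Capitals mark every match to TTTCNNTTTC or its reverse complement GAAANNGAAA, the core of an interferon-stimulated response element, and overlapping matches are merged. These were chosen to show the element. Ifit1bl1, an Ifit1-like gene outside the score, is given beside them, and Cmpk2, an interferon-stimulated gene, and Prf1, the pore-forming perforin, are given as promoters with no match in this window.
Ifit1, chr19:34640739-34640888, plus strand: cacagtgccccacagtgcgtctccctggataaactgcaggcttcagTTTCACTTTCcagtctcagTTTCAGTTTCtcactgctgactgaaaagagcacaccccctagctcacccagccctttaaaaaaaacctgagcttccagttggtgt
Ifit3, chr19:34583379-34583528, plus strand: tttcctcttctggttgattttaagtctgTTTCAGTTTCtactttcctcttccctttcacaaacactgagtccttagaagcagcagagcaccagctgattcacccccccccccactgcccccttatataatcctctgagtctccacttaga
Rsad2, chr12:26456453-26456602, minus strand: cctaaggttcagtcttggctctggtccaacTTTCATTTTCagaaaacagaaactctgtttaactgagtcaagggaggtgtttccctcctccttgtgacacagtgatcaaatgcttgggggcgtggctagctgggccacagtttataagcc
Isg15, chr4:156200819-156200968, minus strand: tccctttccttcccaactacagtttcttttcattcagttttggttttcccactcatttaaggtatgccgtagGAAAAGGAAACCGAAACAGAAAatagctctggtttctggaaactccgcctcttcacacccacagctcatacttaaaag
Ifit1bl1, chr19:34601969-34602118, minus strand: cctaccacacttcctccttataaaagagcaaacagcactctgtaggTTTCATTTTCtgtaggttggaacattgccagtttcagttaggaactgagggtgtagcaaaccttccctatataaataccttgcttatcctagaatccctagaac
Cmpk2, chr12:26469065-26469214, plus strand: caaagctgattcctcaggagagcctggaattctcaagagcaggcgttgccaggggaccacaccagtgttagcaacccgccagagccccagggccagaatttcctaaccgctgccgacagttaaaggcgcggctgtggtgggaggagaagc
Prf1, chr10:61297686-61297835, plus strand: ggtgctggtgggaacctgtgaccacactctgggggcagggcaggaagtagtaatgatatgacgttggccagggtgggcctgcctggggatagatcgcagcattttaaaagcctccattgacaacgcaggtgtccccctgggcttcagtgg

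Isg15 held 3 overlapping copies, Ifit1 held 2, and Ifit3, Rsad2 and Ifit1bl1 held 1 each. The same window held 0 matches in 10 further interferon-related genes described below: Ifit3b, Cmpk2, Ifit2, Cxcl10, Oasl1, Slfn5, Ifi44, Irf7, Stat2 and Irf9. In the longer promoters described next, Ifit3b held 2 matches, Cxcl10, Slfn5 and Stat2 held 1 each, and the rest held 0. Over 300-base promoters (250 bases before to 50 after the start), the motif was found on either strand in 46.9% of the interferon-stimulated genes listed here that have a promoter entry (23 of 49). It was found in 25% of the genes counted as higher in members (51 of 204, 95% interval 19.2 to 31.5), 4.72% of all genes compared (198 of 4198) and 3.99% of all 27025 promoters. A match describes these letters only; bound factors were not measured.

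Members made up a like part of the non-cycling CD8 cells in each library: 17.0% (14.5 to 19.7) in Ac, 16.4% (13.1 to 20.1) in C, 14.6% (11.9 to 17.7) in aC+C and 16.9% (14.2 to 19.9) in IgG. Parentheses give exact Clopper-Pearson 95% intervals, which cover counting error only. The intervals of all 4 libraries overlapped. Summed over the score genes Ifit1, Ifit3 and Rsad2, the values that chose the cells, members had 1624 CPM in Ac, 883 in C, 1624 in aC+C and 1234 in IgG, and remaining cells 52.8, 46.6, 42.1 and 43.0 CPM (UMIs per 1000000 UMIs of the class). These levels follow from the rule and support nothing. The median score of the members was 11, 10, 10 and 11 UMIs in the same order, and the highest reached 73 to 185. Most remaining cells had no UMI of the score genes at all (1546 of 2181). Just inside the threshold lay 54 cells with a score of 5, and just outside it 68 cells with a score of 4.

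**Figure D1:**
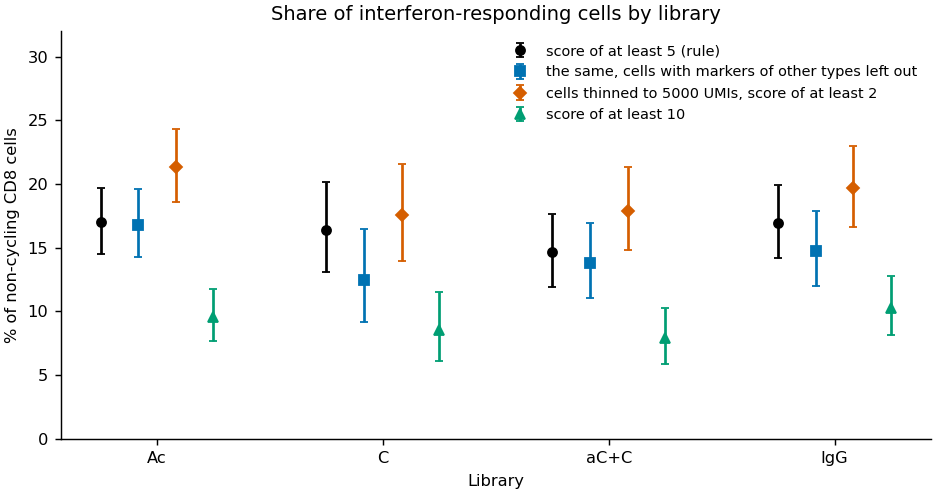
Members as a percentage of non-cycling CD8 cells (y axis) in each library (x axis); points are single-library shares and bars exact 95% binomial intervals. Under the rule the 4 shares lie between 14.6% and 17.0%, and the intervals overlap within each of the 4 definitions.

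The rule counts UMIs, so deep cells reach it more easily. When each non-cycling CD8 cell was thinned to 5000 UMIs and a score of at least 2 was asked for, 21.3% of the cells in Ac, 17.5% in C, 17.9% in aC+C and 19.7% in IgG passed. C and aC+C then changed places at the low end of the order, and their intervals overlapped. A second score of 4 other interferon genes, Oasl1, Usp18, Ifi44 and Cmpk2, at 3 UMIs or more, picked 330 cells, of which 238 were members; that is 56% of the members and 72.1% of the second set.

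Some members carried transcripts of other cell types, and these bear on many results below. Their part in results given without the filter described next was not tested. At least 5 UMIs over 10 macrophage genes such as Lyz2 and C1qa were found in 7.64% of members in Ac, 38.4% in C, 13.2% in aC+C and 20.5% in IgG, against 4.13, 16.6, 7.53 and 9.23% of the remaining cells. The summed level of those genes was 2256 CPM in Ac, 7958 in C, 2118 in aC+C and 3852 in IgG members and 999.9, 3842, 763 and 1563 CPM in the remaining cells. Both classes had most of it in C, and in every library the members had more. B cell (4 genes), dendritic (5), neutrophil (3) and epithelial (6) markers each stayed under 100 UMIs per gene in the members. The 4 fibroblast genes had enough UMIs but 0 were counted as higher. Tyrobp, the only 1 of 5 genes on the NK list with enough UMIs, was counted as higher in members. Its mean log2 ratio was 1.23 with all cells and -0.14 after the filter described next, on too few UMIs to be counted. In addition, 5 of 6 MHC class II genes were counted as higher, with Cd74 at 540.2 to 3753 CPM in members and 245 to 1659.9 CPM in remaining cells.

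A filter chosen after seeing the data therefore left out every cell with at least 5 UMIs over the myeloid, B cell, dendritic, fibroblast, epithelial and neutrophil lists, or at least 10 over MHC class II. It took 89 members (20.9%) and 261 remaining cells (12.0%). By library it took 7.64% of members in Ac, 42.5% in C, 16.5% in aC+C and 27.4% in IgG, which left 133, 42, 76 and 85 members in the same order. After it, the summed macrophage genes stood at 61.6 to 147 CPM in members and 51.7 to 131 CPM in remaining cells. Values "after the filter" below refer to these cells.

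Members were compared with remaining cells of the same library by the CPM of each class, with 0.5 UMI added on each side, and log2 ratios are given as mean ± SD over the 4 libraries. A gene was counted as higher or lower only if the ratio reached 1.5 in each of the 4 libraries. Because the members were selected on the values of these same cells, the ratios are a description and no test was made. A minimum of 100 UMIs in members, which favours genes high in members, left 5355 genes, of which 276 were counted as higher (5.15%) and 5 as lower (0.0934%). After the filter, 182 of 3694 genes were higher (4.93%) and 2 lower (0.0541%); 145 of the 276 were counted again, of 159 that still had enough UMIs. The median gene had a log2 ratio of -0.01.

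The antiviral effectors were higher almost without exception: of 43 listed genes, 36 had enough UMIs, 35 were counted as higher and 0 as lower, with a median log2 ratio of 1.77 (1.84 after the filter). The 1 exception, Shisa5, had 789 to 1171 CPM in members and 731 to 809 CPM in remaining cells. Ifit2, which binds viral RNA and blocks translation, reached 212 CPM in Ac, 137 in C, 178 in aC+C and 165 in IgG members, against 15.3, 11.2, 15.7 and 11.8 CPM in the remaining cells of the same libraries, a log2 ratio of 3.67 ± 0.15. No library overlapped. Mx1, a GTPase that traps influenza ribonucleoprotein in mice, had 217 CPM in Ac, 114 in C, 164 in aC+C and 187 in IgG members and 16.9, 11.9, 13.1 and 16.2 CPM in remaining cells (3.53 ± 0.19). Cmpk2, a mitochondrial nucleotide kinase, had 109.6 CPM in Ac, 65.2 in C, 104 in aC+C and 90.6 in IgG members and 4.89, 7.49, 6.38 and 6.19 CPM in remaining cells (3.86 ± 0.57). Each of these 3 genes was low outside the members, and the C library had the lowest member level of all 3.

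Outside the 3 score genes, Ifit3b had the highest ratio (4.91 ± 1.04), at 41.2 to 115 CPM in members and 1.83 to 3.75 CPM in remaining cells. It is a near copy of the score gene Ifit3, so its reads may be shared with a gene that chose the cells, and its ratio is uncertain. Ifit1bl1 had 163 CPM in Ac, 67.8 in C, 96.1 in aC+C and 81.2 in IgG members and 11.5, 6.79, 7.20 and 8.58 CPM in remaining cells (3.52 ± 0.30). Further effectors were the RNA-binding Oasl1 (3.37), Slfn5 (3.16), Oasl2 (2.79), the chaperone-like Rtp4 (2.33) and Oas3 (2.04), whose product activates RNase L. At the low end of the effectors counted as higher stood genes that remaining cells already expressed. Bst2, a tether of budding virus, had 783 CPM in Ac, 829 in C, 721 in aC+C and 745 in IgG members and 336, 310.0, 280.0 and 339 CPM in remaining cells (1.29 ± 0.13). Ifi27l2a had 1929 to 2849 CPM in members and 1206 to 1741 CPM in remaining cells (0.76 ± 0.17).

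**Figure D2:**
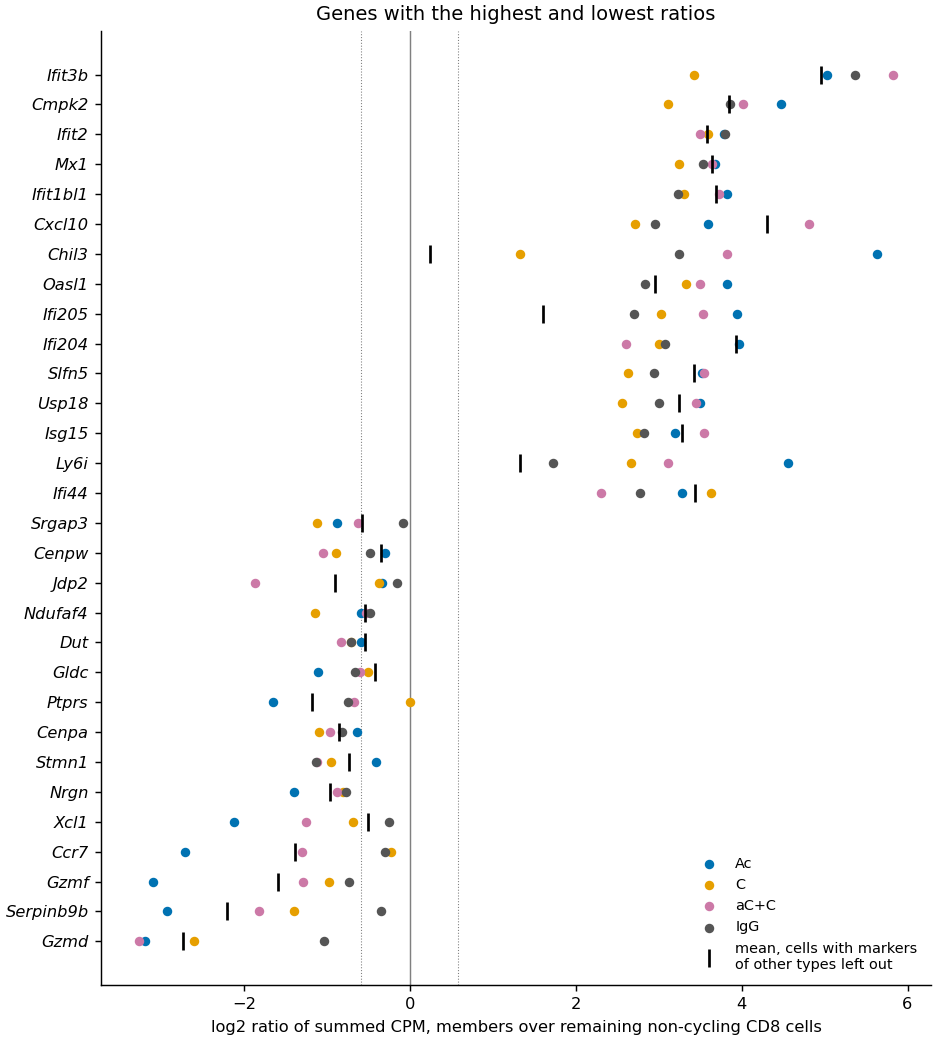
Log2 ratio of CPM, members over remaining cells (x axis), for the 15 genes with the highest and the 15 with the lowest mean ratio (y axis); dots are libraries, black ticks the mean after cells with markers of other types were left out, and dotted lines a ratio of 1.5. Chil3, Ifi205 and Ly6i lose much of their ratio after the filter (0.24, 1.60 and 1.33), while Isg15 and Mx1 keep theirs.

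All 6 genes of the Isg15 conjugation system were counted as higher (median log2 ratio 1.74). Isg15, the ubiquitin-like modifier itself, reached 959 CPM in Ac, 531 in C, 941 in aC+C and 672 in IgG members, against 104, 79.8, 80.7 and 94.8 CPM in remaining cells, a log2 ratio of 3.08 ± 0.37. It was the one marker of the cells outside the score. The enzymes that attach it followed: Uba7, which activates it (1.11 ± 0.18), Ube2l6, which conjugates it (1.62 ± 0.09), and the ligases Herc6 (1.86 ± 0.21) and Trim25 (1.32 ± 0.18). Usp18, which removes Isg15 and also damps the type I receptor, had 237 CPM in Ac, 132 in C, 263 in aC+C and 166 in IgG members and 20.9, 22.5, 24.1 and 20.7 CPM in remaining cells (3.13 ± 0.44). The members held 61.6 to 68.2% of all Usp18 UMIs of the non-cycling CD8 cells in each library.

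Of 15 nucleic acid sensors, 13 had enough UMIs and 12 were counted as higher (median 1.93, and 2.12 after the filter). The cytosolic RNA helicases were among them: Ifih1 (MDA5) had 110.3 CPM in Ac, 109.9 in C, 93.2 in aC+C and 99.3 in IgG members and 17.6, 19.7, 13.6 and 18.6 CPM in remaining cells (2.58 ± 0.16), Ddx58 (RIG-I) a log2 ratio of 1.86 ± 0.17 and their regulator Dhx58 one of 2.13 ± 0.15. The kinase Eif2ak2 (PKR), which halts translation on double-stranded RNA, had 1.73 ± 0.20, and the nucleic acid sensor Zbp1 1.64 ± 0.14. The exception was Aim2, a DNA sensor of the inflammasome, with 59.3 CPM in Ac, 61.0 in C, 48.1 in aC+C and 62.4 in IgG members and 55.7, 50.3, 45.7 and 58.1 CPM in remaining cells (0.14 ± 0.09). Among related Ifi200 genes, Ifi204 had 3.16 and Ifi203 1.40; this family is highly similar in sequence, so single members are uncertain.

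Within the signalling pathway 9 of 20 genes were counted as higher and 0 as lower, and the transcription factors Stat2 and Irf7 had the highest ratios. Stat2 had 80.3 CPM in Ac, 48.1 in C, 58.6 in aC+C and 63.1 in IgG members and 11.5, 13.3, 10.8 and 15.3 CPM in remaining cells (2.28 ± 0.42). Irf7, which amplifies type I interferon, had 337 CPM in Ac, 369 in C, 332 in aC+C and 313 in IgG members and 64.2, 82.0, 63.2 and 99.0 CPM in remaining cells (2.15 ± 0.35). Irf9, which carries the DNA contact of the complex, had 85.2 CPM in Ac, 67.8 in C, 79.8 in aC+C and 81.8 in IgG members and 47.1, 38.4, 36.8 and 47.2 CPM in remaining cells (0.90 ± 0.15). The feedback inhibitor Socs1 (0.90 ± 0.22) and the nuclear body protein Pml (1.68 ± 0.32) were counted as higher too. Ifngr2, a chain of the interferon gamma receptor, was counted as higher as well (1.12 ± 0.39), but kept only 14 member UMIs after the filter, too few to be counted. The type I receptor chains and the kinase Jak1 were not counted: Ifnar1 had 112 CPM in Ac, 114 in C, 77.9 in aC+C and 111 in IgG members and 93.0, 82.2, 57.9 and 105 CPM in remaining cells (0.32 ± 0.18), Ifnar2 a log2 ratio of 0.46 ± 0.21 and Jak1 one of -0.05 ± 0.24. Irf1, a main target of interferon gamma, was higher in each library (0.61 ± 0.08) but did not reach the threshold in all of them, and Irf8 had -0.26 ± 0.23.

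The membrane genes of the Ifitm and Ly6 families were mixed. Ly6a (Sca-1), an activation marker of mouse T cells, had 1220.2 CPM in Ac, 1093 in C, 1248 in aC+C and 1018 in IgG members and 519, 399.7, 657 and 473 CPM in remaining cells (1.18 ± 0.22), and 1.19 ± 0.12 after the filter. Ifitm3, which blocks viral entry and is also abundant in macrophages, had 488 CPM in Ac, 1552 in C, 1019.8 in aC+C and 788 in IgG members and 169.7, 428, 253 and 402 CPM in remaining cells (1.59 ± 0.46), but 0.56 ± 0.49 after the filter, when it no longer counted as higher. Ly6c2 gave 0.71 ± 0.13 and Ly6e 0.71 ± 0.10. The Ifitm1 ratio was 0.51 ± 0.12 before and 0.09 ± 0.67 after the filter.

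Of 32 genes for antigen presentation, interferon-induced GTPases and CXCR3 ligands, 29 had enough UMIs and 15 were counted as higher (median 0.77). Cxcl10, described below, had the highest ratio. Among the GTPases, which attack vacuoles of intracellular pathogens, Iigp1 had 48.9 CPM in Ac, 108 in C, 82.7 in aC+C and 38.2 in IgG members and 6.88, 15.9, 6.22 and 8.43 CPM in remaining cells (2.87 ± 0.64), Igtp a log2 ratio of 2.18 ± 0.30, Gbp2 2.05 ± 0.48 and Gbp4 1.49 ± 0.40. Classical MHC class I was already high everywhere and moved little. H2-K1 had 4253 CPM in Ac, 3224 in C, 3374 in aC+C and 3755 in IgG members and 3472, 2944, 2876 and 3103 CPM in remaining cells (0.23 ± 0.07), H2-D1 gave 0.24 ± 0.05 and their partner chain B2m 0.21 ± 0.06. H2 genes share sequence with each other, so reads may be split among them. The peptide transporter Tap1 (0.74 ± 0.12) and the non-classical H2-T22 (0.87 ± 0.11) were counted as higher, and the immunoproteasome subunit Psmb8 (0.32 ± 0.05) was not. Cd274, which encodes the checkpoint ligand PD-L1, had 97.7 CPM in Ac, 92.7 in C, 96.1 in aC+C and 111 in IgG members and 45.4, 45.2, 30.8 and 57.4 CPM in remaining cells (1.19 ± 0.31).

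The 2 CXCR3 ligands differed after the filter. Cxcl10 had 197 CPM in Ac, 304 in C, 805 in aC+C and 361 in IgG members and 16.3, 46.4, 28.6 and 46.4 CPM in remaining cells (3.52 ± 0.94), and 4.30 ± 0.74 after the filter, although 1 cell gave 45.3% of the member UMIs in aC+C. Cxcl9 had 38.4 CPM in Ac, 162 in C, 57.7 in aC+C and 127 in IgG members and 22.1, 36.5, 7.69 and 48.6 CPM in remaining cells (1.81 ± 0.91), but a mean of -0.28 after the filter, on too few UMIs to be counted.

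**Figure D3:**
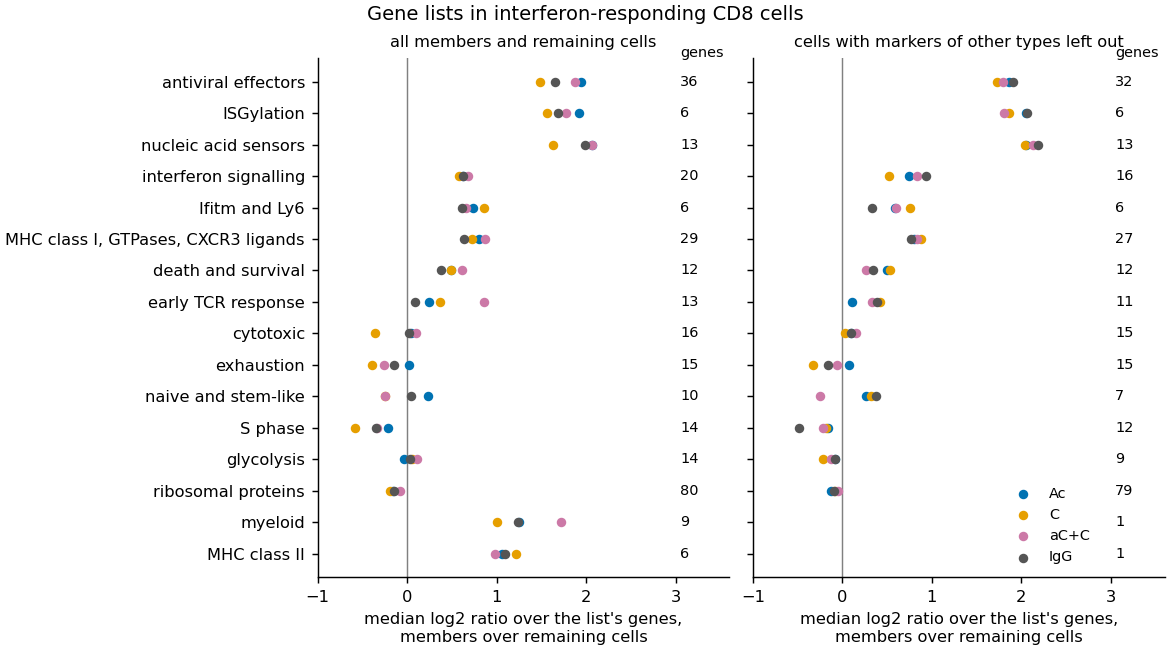
Median log2 ratio of CPM, members over remaining cells (x axis), for each gene list (y axis), with 1 dot per library and the number of genes measured at the right; the left panel uses all cells and the right panel leaves out cells with markers of other types. Antiviral effectors, conjugation genes and sensors lie between 1.49 and 2.19 in both panels, whereas myeloid and MHC class II lists, at 1.24 and 1.11 with all cells, keep only 1 measurable gene each after the filter.

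Cytotoxic genes had no common direction: of 16 with enough UMIs, 0 were counted as higher and 2 as lower, with a median log2 ratio of -0.08. After the filter 15 had enough UMIs, 1 was counted as higher (Tnfsf10, 0.94 ± 0.18) and 0 as lower, with a median of 0.09. Prf1, the perforin shown above, had 83.1 CPM in Ac, 104 in C, 158 in aC+C and 79.2 in IgG members and 144, 129.7, 274 and 115 CPM in remaining cells (-0.61 ± 0.23); it was lower in members of every library but under the 1.5 threshold in at least 1. Gzmb, the main killing protease, had 2845 CPM in Ac, 1269 in C, 2387 in aC+C and 1487 in IgG members and 1604, 1097, 2074 and 1296 CPM in remaining cells (0.36 ± 0.31), higher in each library. The 2 genes counted as lower with all cells were granzymes of one gene cluster. Gzmf had 95.6 CPM in Ac, 559 in C, 714 in aC+C and 445 in IgG members and 819.9, 1099, 1747 and 739 CPM in remaining cells (-1.52 ± 1.07). Gzmd had 15.4 CPM in Ac, 16.3 in C, 41.3 in aC+C and 39.6 in IgG members and 143, 102, 402 and 81.7 CPM in remaining cells (-2.52 ± 1.04). Their levels rest on few cells, since 1 cell gave 24.8 to 57.3% of the Gzmf member UMIs in each library, and the cluster's genes are similar in sequence. The memory-type granzyme Gzmk had 0.35 ± 0.36, Nkg7 -0.13 ± 0.22, the receptor Klrk1 (NKG2D) 0.29 ± 0.24 and the death ligand Tnfsf10 (TRAIL) 0.68 ± 0.33.

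Of 15 exhaustion genes, 0 were counted as higher or lower, against 5.15% and 0.0934% of all genes compared. Their median log2 ratio was -0.21, and -0.10 after the filter. By library it was 0.02 in Ac, -0.39 in C, -0.26 in aC+C and -0.14 in IgG with all cells. By any amount, 5 of the 15 were lower in each of the 4 libraries and 1 was higher in each, against 18.6% and 20% of all genes. Pdcd1, which encodes the checkpoint receptor PD-1, had 415 CPM in Ac, 152 in C, 340.2 in aC+C and 266 in IgG members and 398, 229.7, 393 and 319 CPM in remaining cells (-0.25 ± 0.27). Havcr2 (TIM-3) gave -0.12 ± 0.34, Lag3 -0.26 ± 0.14 and the costimulatory receptor Tnfrsf9 -0.40 ± 0.21. Prdm1, the effector regulator Blimp-1, stood apart in the list at 0.55 ± 0.19, without reaching the threshold in each library. Of 10 naive and stem-like genes 0 were counted, with Tcf7 at 0.29 ± 0.81 and Il7r at -0.08 ± 0.15. Among 6 cytokine and chemokine genes 0 were counted. Ifng itself had 255 CPM in Ac, 269.6 in C, 268 in aC+C and 156 in IgG members and 221, 345, 225 and 217 CPM in remaining cells (-0.09 ± 0.38), higher in members of 2 libraries and lower in the other two. Ccl5 was higher in each library (0.46 ± 0.27), Ccl4 gave 0.00 ± 0.46 and Ccl3 -0.23 ± 0.45. Of 5 residency genes 0 were counted as well.

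Early T cell receptor response genes gave 0 counted of 13 and a median of 0.35. Cd69, an early activation marker that also retains T cells in tissue, had 434 CPM in Ac, 224 in C, 375 in aC+C and 249 in IgG members and 144, 174, 107 and 154 CPM in remaining cells (1.11 ± 0.69). No library overlapped, and after the filter Cd69 was counted as higher (1.35 ± 0.48). Fos gave 1.20 ± 0.62 before and 0.62 ± 0.37 after the filter. The death and survival list had 4 of 12 higher: Daxx, a binding partner of Pml and Fas (2.07 ± 0.39), and the caspases Casp4 (1.37 ± 0.25), Casp8 (0.85 ± 0.14) and Casp1 (0.79 ± 0.04). Casp1 had 38.4 CPM in Ac, 69.5 in C, 59.6 in aC+C and 65.1 in IgG members and 23.3, 40.0, 33.7 and 37.7 CPM in remaining cells. Mcl1, a survival factor, gave 0.53 ± 0.13.

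Genes of DNA synthesis tended to be lower, although the rule bears on them by excluding cells rich in Mki67 and Top2a. Of 14 S phase genes 9 were lower in each of the 4 libraries by any amount, against a background of 18.6% of genes lower and 20% higher in that sense. The list's median was -0.31 (-0.22 after the filter). Dut, which clears dUTP, was the 1 counted as lower, at 154 CPM in Ac, 149 in C, 171 in aC+C and 164 in IgG members and 232, 246, 304 and 268 CPM in remaining cells (-0.71 ± 0.10). Mcm5, a subunit of the replicative helicase, gave -0.63 ± 0.28 and Pcna -0.31 ± 0.22. Cenpa, the centromere histone, was counted as lower too (-0.88 ± 0.19). The 1 further gene counted as lower was Nrgn, a calmodulin-binding protein, at 49.6 CPM in Ac, 131 in C, 85.5 in aC+C and 112 in IgG members and 131, 231, 158 and 191 CPM in remaining cells (-0.96 ± 0.29); it was the only one of the 5 that was counted again after the filter, of 4 with enough UMIs. Ribosomal protein genes were slightly lower, with 72 of 80 below in each library and a median of -0.14, and of 14 glycolysis genes 0 were counted (median 0.05).

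The same genes were also compared as shares of cells at equal depth. After thinning to 5000 UMIs, which left out 7, 5, 12 and 20 members and 24, 36, 57 and 46 remaining cells in Ac, C, aC+C and IgG, a Cd69 UMI was seen in 69.3% of members in Ac, 64.7% in C, 55.7% in aC+C and 60.8% in IgG, against 41.7, 43.9, 32.7 and 43.9% of remaining cells. Free RNA can add UMIs to any cell. Myeloid cells (Csf1r and Lyz2 without Cd3e), which lack most T cell genes, had 20.9 to 22.9%, at a median of 10584 to 12355 UMIs before thinning. Whether their Cd69 UMIs came from free RNA or from the myeloid cells themselves was not tested. Prf1 was seen in 19.7% of members in Ac, 19.1% in C, 34.2% in aC+C and 34.0% in IgG and 38.3, 35.6, 53.4 and 36.9% of remaining cells, with 0.651 to 2.95% in myeloid cells. Pdcd1 was seen in 79.6% of members in Ac, 45.6% in C, 69.6% in aC+C and 62.9% in IgG and 78.5, 59.9, 79.1 and 73.3% of remaining cells, with 0.319 to 1.59% in myeloid cells. Across libraries, the ranges of members and remaining cells did not overlap for Cd69 or Prf1 and overlapped for Pdcd1. Within IgG the 95% intervals of Prf1 overlapped, at 24.7 to 44.3% in members and 32.8 to 41.2% in remaining cells. Within libraries Pdcd1 was lower in members of C, aC+C and IgG but not of Ac. Its intervals overlapped between the classes in each library. Without thinning, members ranged over 82.4 to 83.6% for Cd69, 38.9 to 48.4% for Prf1 and 68.5 to 84.7% for Pdcd1, and remaining cells over 51.6 to 65.1%, 49.1 to 64.0% and 76.4 to 90.8% for the same genes.

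Mean levels of interferon genes rose with the score on both sides of the threshold. Bin means do not show how the signature is spread over single cells, and that was not tested. Across score bins (mean ± SD over the 4 libraries), Isg15 stood at 49.9 ± 7.13 CPM at a score of 0, 297 ± 74.1 at 3 to 4, 527 ± 138 at 5 to 9 and 1194 ± 373 at 20 or more. Irf7 stood at 49.5 ± 14.1 CPM at a score of 0, 169.9 ± 25.6 at 3 to 4, 273 ± 33.3 at 5 to 9 and 479 ± 68.1 at 20 or more. Interferon genes were thus already above the level of score-0 cells in cells just outside the threshold, where 160 remaining cells had a score of 3 or 4. Gzmf ran the other way, at 1176 ± 413 CPM at a score of 0, 867 ± 666 at 3 to 4, 717 ± 561 at 5 to 9 and 172 ± 78.8 at 20 or more. Pdcd1 changed by less than its spread, at 352 ± 74.1 CPM at a score of 0, 296 ± 101 at 3 to 4, 306 ± 96.8 at 5 to 9 and 289 ± 104 at 20 or more. Neighbouring bins of Gzmf up to a score of 9 differed by less than the spread between libraries. The highest bin held 104 cells, 13 of them in C, and its macrophage genes summed to 8097 ± 5177 CPM, against 957 ± 732 CPM at a score of 0. The bins between also stood above that level, at 3812 ± 3234 CPM for 1 to 2 and 3302 ± 3706 for 3 to 4. Scores of 5 to 9 and 10 to 19 gave 2620 ± 2011 and 2647 ± 2895 CPM. All values in this paragraph were taken without the filter.

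**Figure D4:**
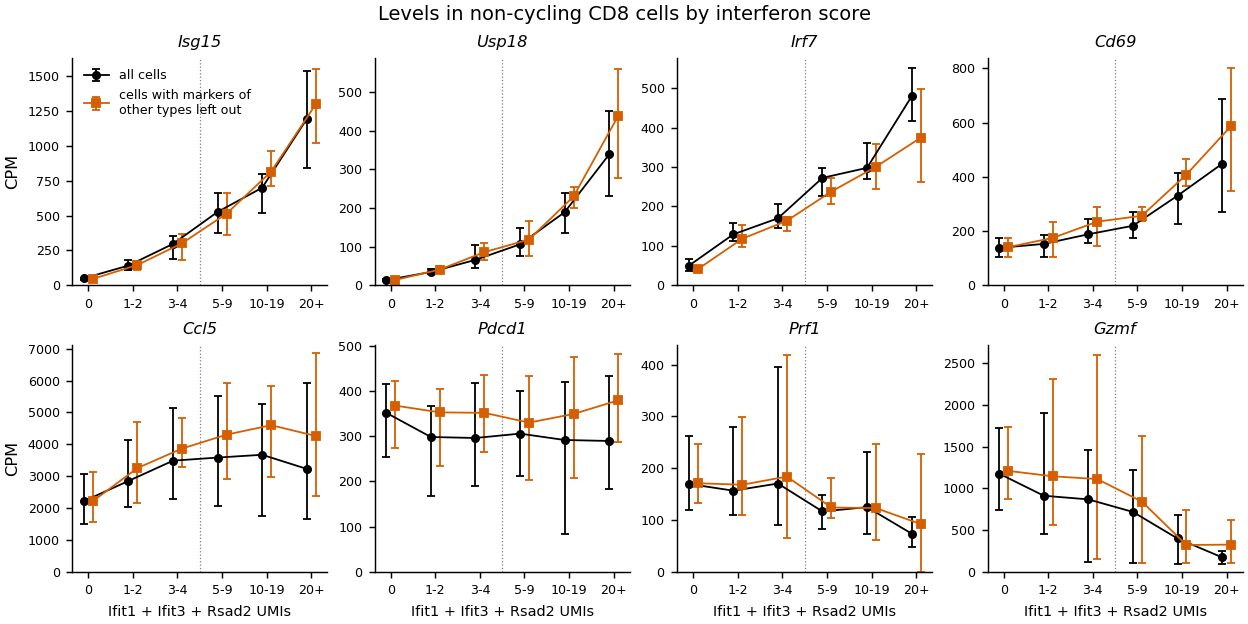
CPM (y axes) of 8 genes in non-cycling CD8 cells binned by interferon score (x axes); points are means over the 4 libraries, bars run over the libraries' lowest and highest values, and the dotted line is the threshold of the rule. Isg15 and Usp18 climb from bin to bin, Pdcd1 stays level, and Gzmf is lowest in the 2 top bins, with and without cells carrying markers of other types.

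Between libraries, members were compared by the ratio of CPM with an exact conditional binomial 95% interval, and genes of at least 100 UMIs over both libraries were counted at 2-fold. Against IgG, 11 genes were higher and 84 lower in Ac (0.293% and 2.24% of 3751), C had 72 higher and 17 lower (2% and 0.472% of 3604), and aC+C 22 higher and 100 lower (0.67% and 3.04% of 3286). The 3 comparisons share the IgG members. Over Ac, aC+C had 36 higher and 33 lower (1.17% and 1.07% of 3088); over C it had 18 and 143 (0.615% and 4.89% of 2925). After the filter the counts against IgG were 9 higher and 11 lower for Ac, 8 and 3 for C, and 11 and 18 for aC+C. Not all of these genes had been counted with all cells. Those counted both times were 4 higher and 6 lower genes for Ac. The C comparison kept 4 higher genes but only 1 lower gene, while aC+C kept 5 and 8.

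Members of every library had passed the same score threshold, and interferon-stimulated genes rose with the score. Like levels of these genes between libraries thus follow in part from the rule. Their median ratio over IgG was 1.14 (0.967 after the filter, 0.989 in remaining cells) in Ac. It was 0.806 (0.835 after the filter, 0.958 in remaining cells) in C and 0.963 (0.853 after the filter, 0.856 in remaining cells) in aC+C. Of 52 to 54 genes measured, Ifit1bl1 passed 2-fold in Ac, at 2.01 (95% interval 1.61 to 2.53), and Oasl2 and Ifi44 in C, at 2.03 (95% interval 1.56 to 2.64) and 2.03 (95% interval 1.34 to 3.12). None passed in aC+C. After the filter 0 of these genes passed 2-fold in any of the 3 comparisons: Ifit1bl1 gave 1.63 in Ac, and Oasl2 and Ifi44 were left with too few UMIs to be counted (24 and 7 in C members, 22 and 8 in IgG members). Isg15 gave 1.43 (95% interval 1.32 to 1.55) in Ac, 0.791 (95% interval 0.715 to 0.876) in C and 1.40 (95% interval 1.28 to 1.53) in aC+C. The intervals cover counting error alone. Cxcl10 gave 0.545 (95% interval 0.471 to 0.631) in Ac, 0.842 (95% interval 0.734 to 0.965) in C and 2.23 (95% interval 2.00 to 2.49) in aC+C. In aC+C 1 cell gave 45.3% of these UMIs, and the ratio was 0.747 (95% interval 0.611 to 0.911) after the filter; barcodes of 1 to 50 UMIs, mostly free RNA, had 813 CPM of Cxcl10 in aC+C and 278 CPM in IgG.

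**Figure D5:**
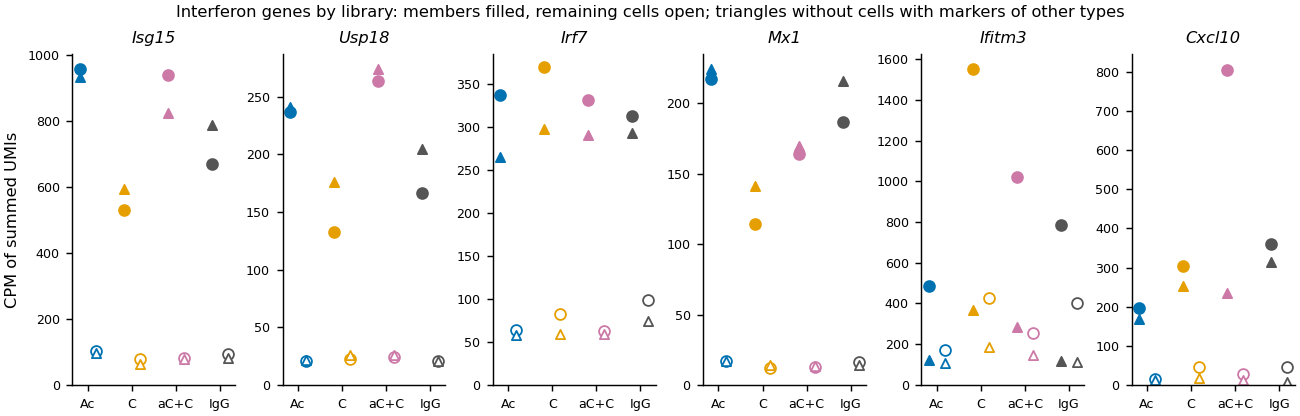
CPM (y axes, one scale per gene) of 6 interferon genes in each library (x axes); filled symbols are members and open symbols remaining cells, circles all cells and triangles after cells with markers of other types were left out. Members lie above remaining cells of every library for each gene with all cells; after the filter Ifitm3 drops to 120.3 CPM in Ac members and 369.7 CPM in C members.

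The largest differences between libraries sat in few cells and mostly in genes of other cell types. In C, 8 extracellular matrix genes led: Col1a1 had 180.3 CPM in C members (210 UMIs) and 0.671 CPM in IgG members (1 UMI), and 1 cell gave 52.4% of the UMIs in C. Col1a2, Col3a1, Col6a1, Col6a2, Dcn, Sparc and Bgn had the same form, and 1 cell gave 35.8% to 71.6% of each. In aC+C, Dcn, Col3a1, Id3, Ccl2, Cxcl2, Chil3 and Mmp12 rested on 1 cell for 44.6% to 80.5% of their UMIs. Gzmc had 458 CPM in aC+C members and 22.1 CPM in IgG members, with 82.6% of the aC+C UMIs in 1 cell. In IgG, 1 cell gave 72.9% of the member UMIs of Il17a (104 CPM), a cytokine of type 17 T cells that had 0 UMIs in Ac and aC+C members. Taken at a floor of 3 UMIs per library, Ac members had at most 0.0201 times the IgG level. This floor covers counting error only and sets no limit for members as a class, since most IgG UMIs came from 1 cell. That cell passed the filter for other cell types. Genes of dendritic cells also had low ratios over IgG: Ccl17 and Mgl2 in Ac, C and aC+C members, Ccl22, Fscn1 and Tbc1d4 in Ac and aC+C members, Ccr7 and Pkib in Ac members and Cd83 in aC+C members. In IgG members Ccl17 stood at 116 CPM; after the filter Ccl17 and Fscn1 had 0 UMIs there.

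In Ac, the leading genes had smaller ratios. The macrophage-expressed genes Ccl2 and Arg1 gave 3.03 and 2.59, with 42.5% and 31.8% of their Ac UMIs in 1 cell, and fell to 11 and 4 UMIs after the filter. Pkp3 had 145 CPM in Ac members and 54.3 CPM in IgG members, a ratio of 2.67 (95% interval 2.06 to 3.50), with 2.88% of the Ac UMIs in the top cell, and remaining cells gave a ratio of 1.95. Rasgrp1, an activator of Ras below the T cell receptor, gave 2.25 (95% interval 1.56 to 3.29) in members and 1.40 in remaining cells. Ntan1, Pglyrp2 and Fam169b gave 2.15, 2.16 and 2.12. Ccl3, a chemokine of activated T cells and macrophages, gave 2.14 (95% interval 1.80 to 2.56) before and 2.78 (95% interval 2.18 to 3.56) after the filter, with 33.1% of its Ac UMIs in 1 cell. In C, Gzmk gave 0.313 (95% interval 0.205 to 0.463) with all members, and 0.567 in remaining cells. After the filter, 0 of 13 cytotoxic genes with enough UMIs were counted as lower in C members, so Gzmk was not counted. Phf11c, Gpr174, Lnpep and Rnaset2b gave 0.3 to 0.434 in C members. In aC+C members the MHC class II gene H2-Eb1 gave 0.0985, with 92.5% of its UMIs in 1 cell. The differences in Pkp3, Rasgrp1 and Gzmk thus ran the same way in the remaining cells of the same libraries.

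The ratios of the Ifitm genes over IgG were higher after the filter, which was chosen after seeing the data, in each of the 3 comparisons. With all members, the ratio over IgG was 1.22 (95% interval 1.09 to 1.37) in Ac, 1.76 (95% interval 1.58 to 1.97) in C and 1.39 (95% interval 1.23 to 1.57) in aC+C for Ifitm1, 1.24, 1.75 and 1.26 for Ifitm2 and 0.62, 1.97 and 1.29 for Ifitm3 in the same order, each below 2-fold. After the filter, Ifitm1, which restricts viral fusion, had 385 CPM in Ac, 511 in C, 513 in aC+C and 86.3 in IgG members, against 271, 432, 361 and 162 CPM in the remaining cells. Its ratio over IgG was then 4.46 (95% interval 3.47 to 5.82) in Ac, 5.92 (95% interval 4.50 to 7.89) in C and 5.95 (95% interval 4.60 to 7.80) in aC+C members, and 1.67, 2.67 and 2.23 in remaining cells. The same ratio for Ifitm2 was 3.85, 1.91 and 3.27, and for Ifitm3 1.01, 3.09 and 2.39. All 3 comparisons use the same IgG library, so they are not independent. Prf1 in aC+C members gave 1.99 (95% interval 1.56 to 2.54) with all cells, 2.52 (95% interval 1.89 to 3.40) after the filter and 2.01 in remaining cells.

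Other cells of the same tumours set a scale for these levels. After thinning to 5000 UMIs, a score of at least 2 was met by 29.2, 23.1, 30 and 25.7% of regulatory T cells (Cd3e and Foxp3), 24.1, 26.2, 27.0 and 28.0% of myeloid cells (Csf1r and Lyz2), 7.90, 10.9, 8.54 and 8.12% of NK cells and 11.7, 8.45, 9.32 and 11.7% of cycling CD8 cells, in the order Ac, C, aC+C and IgG. The non-cycling CD8 cells as a whole, given above, had the higher share than the cycling ones in each library, a difference that was not tested. At full depth the score of 5 was reached by 10.3% of cycling CD8 cells in Ac, 16.0% in C, 11.6% in aC+C and 15.5% in IgG. Isg15 had 531 to 959 CPM in members, 224 to 369 in regulatory T cells, 297 to 441 in myeloid cells, 122 to 161 in cycling CD8 cells and 105 to 125 in NK cells. Barcodes of 1 to 50 UMIs, which hold mostly free RNA, had 165 to 241 CPM, below the members and above the remaining cells of every library. Summed over 63 interferon-stimulated genes, regulatory T cells (10031 to 13849 CPM) overlapped the members (11610.2 to 16207 CPM).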

How the data were processed

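Single-cell 3' RNA was measured in 4 libraries. Cell Ranger 2.1.1 and build mm10 are named in the submitters' processing notes; the deposited matrix headers name software version 3.0.2, and the labels name v2 reagents. The sources used here name no annotation or aligner settings. What the authors deposited are unnormalized UMI counts over 27998 genes and 6794880 listed barcodes, summing to 61519049 to 75665201 UMIs per library; the other deposited lists hold gene and barcode names only (other).

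Cells were selected by the rule in the text, and UMIs were summed per class and library and divided by the class total (CPM). Members and gene lists were chosen with earlier results of these data known. With 1 library per group no p-value was computed, and replicate error between libraries of 1 group is unknown. Intervals and floors of 3 UMIs cover counting error only. Genes named were the 15 highest and 15 lowest ratios of members over remaining cells among genes with 1 direction in all 4 libraries, the 8 highest and 8 lowest ratios over IgG for each library, and genes of the lists; T cell receptor and immunoglobulin variable segments, mitochondrial genes and rule genes were left out, and some listed genes are not reported here. Alternatives were other scores, depths, minimums, normalizations (edgeR 4.0.16 TMM factors), leaving out Scrublet doublets (scanpy 1.11.5, a rate of 0.8% per 1000 cells), and leaving out a library. Doublets stayed in otherwise: Scrublet would remove 7 members in Ac, 7 in C, 6 in aC+C and 3 in IgG. Scripts were tested on simulated data with Python 3.11.15, numpy 2.4.6, scipy 1.17.1, pandas 2.3.3 and matplotlib 3.10.9. Promoters came from RefSeq (GRCm38.p6).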

Additional observations from a re-analysis of the deposited data

Results flagged for a closer look

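The level in members was at least 1.5 times that of remaining cells in one library and at least 1.5 times lower in another for 5 of the 235 listed genes with enough UMIs, and the difference was not tested. By any amount, 65 of the 235 had both directions. Id3, a regulator of memory-like T cells, had a log2 ratio of 3.94 in aC+C and -2.20 in IgG. The collagen gene Col1a1 had 4.12 in C and -4.61 in IgG, and Col1a2 4.94 in C and -3.88 in IgG. Col3a1 had 3.13 in aC+C and -4.32 in IgG, and the matrix proteoglycan gene Dcn 2.48 in aC+C and -5.02 in IgG. In the library with the high ratio, 1 cell gave 76.6% of the member UMIs of Id3, 52.4% of Col1a1, 71.6% of Col1a2, 80.5% of Col3a1 and 54.7% of Dcn. Without cells carrying markers of other types, the 2 ratios were -0.49 in aC+C and 1.20 in IgG for Id3, and between -0.70 and 1.56 for the 4 matrix genes.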

How the results depend on the processing

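No paired analysis was possible because each group has 1 library. Of 133 alternative values of the main results, 94 stayed close and 39 moved. Member shares moved with the score: at a score of at least 3 they were 23.6% in Ac, 23.5% in C, 20.1% in aC+C and 22.4% in IgG, and at 10 they were 9.56%, 8.52%, 7.88% and 10.3% in that order. Thinned cells gave 21.3% in Ac and 17.9% in aC+C. The second score gave 11.2% in Ac, 13.7% in C, 13.3% in aC+C and 13.2% in IgG. Ac, the highest under the rule, was then the lowest, and the intervals of all libraries overlapped. In C the share was 12.6% without cells of 5 myeloid UMIs and 12.5% without cells with markers of other types (an alternative added after seeing the data). The count of genes higher in members was 177 and 182 under those 2 settings, and that of genes lower 3 and 2; genes lower were also 3 at a score of 3, 3 with remaining cells weighted to the members' depth, 14 at 30 UMIs per gene, and 6 to 9 with 1 library left out, 9 without Ac. The median log2 ratio of interferon-stimulated genes, 1.82, moved under none of its alternatives. Counts of genes 2-fold apart, given as Ac over IgG, C over IgG, aC+C over IgG, aC+C over Ac and aC+C over C, were 375, 361, 549, 361 and 678 at 30 UMIs per gene. Without cells with markers of other types they were 20, 11, 29, 41 and 25. Without cells of 5 myeloid UMIs, Ac over IgG gave 40, C over IgG 16, aC+C over IgG 78 and aC+C over C 35. At a score of 3, Ac over IgG gave 150 and C over IgG 46, and without doublets C over IgG gave 46. Log2 ratios of members over remaining cells changed sign without cells of 5 myeloid UMIs for Cxcl9 (-0.64), Fcgr1 (-0.61), Lyz2 (-0.30), Cd74 (-0.38) and Tyrobp (-0.40), and without cells with markers of other types for Cxcl9 (-0.28), Fcgr1 (-0.18), Lyz2 (-0.27) and Tyrobp (-0.14). Ratios over IgG turned at a score of 3 for Ccl2 (0.451) and Ccr7 (1.02) in Ac, Dcn in C (0.909) and aC+C (0.462) and Col3a1 in aC+C (0.443); without doublets for Chil3 in aC+C (0.911); without cells of 5 myeloid UMIs for Ccl17 (5.01) and Mgl2 (19.8) in C; and without cells with markers of other types for Tbc1d4 in Ac (1.46) and Id3 in aC+C (0.598). Further causes were not tested.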

Other observations

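Type I interferon transcripts were sparse in these libraries. Over 15 type I interferon genes, all cells together had 130 UMIs in Ac, 8 in C, 21 in aC+C and 5 in IgG. In Ac 1 cell held 121 of them, nearly all from Ifnb1 (129 UMIs in the library), and in aC+C 1 cell held 14. Cells with 5 or more such UMIs numbered 1 in Ac, 0 in C, 1 in aC+C and 0 in IgG, and 0 of them were members. Members themselves had 1 such UMI, in Ac. Ifng, the gene of interferon gamma, had 156 to 269.6 CPM in members, 217 to 345 in remaining CD8 cells, 187 to 224 in cycling CD8 cells, 54.1 to 68.0 in NK cells and 0.801 to 4.23 in myeloid cells.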
